A study of Mus musculus with 25 samples.

Results

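Boundaries of topologically associating domains (TADs) that were called in mouse embryonic stem (ES) cells and not in mouse embryonic fibroblasts (MEFs) were described across the chromatin contact maps of the study. A boundary was a start or an end of a deposited domain on an autosome, and it was taken as found only in ES when no MEF domain started or ended within 40 kb of it. The rule kept 1036 of the 2778 autosomal ES boundaries, which is 37.3% (95% Wilson interval 35.5% to 39.1%, counting error only). The autosomes held 3768 boundaries of either cell type in all, of which 1742 were shared and 990 were found only in MEF. The members were thus chosen by the domain calls of the Hi-C libraries, and Hi-C values at these boundaries are descriptions with no test. The H3K27ac and KLF4 libraries took no part in the choice.

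The study followed chromatin contacts while fibroblasts were reprogrammed to pluripotency. The MEFs came from E13.5 embryos heterozygous for an Oct4-GFP reporter, the OKSM cassette and rtTA3, were kept in low oxygen and were collected at passage 3. Doxycycline turns on the OKSM cassette, which carries the reprogramming factors Oct4, Klf4, Sox2 and Myc, and cells were also collected after 3 or 6 days of doxycycline with ascorbic acid, the day 6 cells after a sort for SSEA1. ES cells were of the V6.5 line in KO-DMEM with 2i. HiChIP, which enriches ligated contacts with an antibody, was done for H3K27ac, a mark of active promoters and enhancers, in 2 MEF and 2 ES libraries, and for the transcription factor KLF4 in 3 day 3, 4 day 6 and 4 ES libraries. Hi-C, the same ligation without an antibody, was done in 2 MEF and 2 ES libraries. Cells named TKO, a name the labels do not explain, carried the V6.5 and 2i labels and were profiled for H3K27ac in 3 libraries without doxycycline and 3 after 24 h of doxycycline. ES cells thus stand for 1 line, the labels do not say whether MEF libraries came from separate embryos, and p-values measure the spread between libraries, which may be technical. The files hold no expression, so the labelled cell types were not checked against marker genes.

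HiChIP libraries held 48.7 to 181 M contacts, and the listed interactions had medians of 11 to 47 counts per library. The lists hold only interactions that passed the authors' filters, so an interaction that is not listed may have any value below them. The 2 MEF Hi-C libraries differed by less than the sampling noise, as did the 2 ES ones, so each pair counts as 1 sample and has no SD. The 4 day 6 KLF4 libraries also agreed within sampling noise in every pair. They too count as 1 sample, and their single values are a description. The ES KLF4 libraries fell into 2 pairs, replicates 1 and 2 and replicates 3 and 4, which agreed within sampling noise and were summed into 2 samples. In TKO, replicates 2 and 3 at 0 h and replicates 1 and 3 at 24 h were summed in the same way, which left 2 samples at each time.

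TADs are stretches of a chromosome whose sequences contact each other more often than they contact the neighbouring stretch. In mammals many of their boundaries are bound by CTCF and hold back cohesin as it extrudes DNA loops, and active promoters also tend to lie at boundaries. A boundary is seen as a position that few contacts cross.

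Promoters are shown first, because they are the sequences at the ends of the H3K27ac and KLF4 interactions that crossed these boundaries and passed the test. Each sequence is the 250 bases before a RefSeq gene start (GRCm38.p6, the mm10 build of the submitters' processing notes), read 5′ to 3′ on the gene's strand. Capitals mark GGGNGTGGC, a core of the KLF motif, searched on both strands. Fblim1 (an actin adaptor of cell adhesions, chr4:141599999-141600248, minus strand) has 1 of its listed starts within a few bases of the boundary at chr4:141600000. Tpt1 (translationally controlled tumor protein, chr14:75845006-75845255, plus strand) starts 5.3 kb from its boundary. Parp16 (an ADP-ribosyltransferase of the endoplasmic reticulum, chr9:65214440-65214689, plus strand) starts 14.7 kb from its boundary. That start lies in the bin at 65210001, which has no named gene. The bin that the authors name for Parp16, at 65190001, lies on the other side of the boundary. Urb2 (a ribosome biogenesis factor, chr8:124021247-124021496, plus strand) starts 18.5 kb from its boundary.
Fblim1: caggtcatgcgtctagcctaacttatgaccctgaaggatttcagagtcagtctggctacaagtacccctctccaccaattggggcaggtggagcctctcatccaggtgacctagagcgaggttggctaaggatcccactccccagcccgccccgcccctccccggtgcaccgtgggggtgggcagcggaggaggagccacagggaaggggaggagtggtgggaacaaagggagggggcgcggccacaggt
Tpt1: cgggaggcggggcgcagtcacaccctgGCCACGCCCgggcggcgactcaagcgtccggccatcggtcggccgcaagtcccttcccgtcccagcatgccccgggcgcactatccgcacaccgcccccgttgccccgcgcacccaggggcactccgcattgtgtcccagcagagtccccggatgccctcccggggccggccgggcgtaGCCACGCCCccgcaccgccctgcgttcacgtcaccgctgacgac
Parp16: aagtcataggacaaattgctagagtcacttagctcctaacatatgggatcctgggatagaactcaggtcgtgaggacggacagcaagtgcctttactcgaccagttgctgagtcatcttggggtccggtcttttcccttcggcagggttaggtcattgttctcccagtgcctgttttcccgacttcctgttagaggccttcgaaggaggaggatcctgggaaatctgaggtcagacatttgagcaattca
Urb2: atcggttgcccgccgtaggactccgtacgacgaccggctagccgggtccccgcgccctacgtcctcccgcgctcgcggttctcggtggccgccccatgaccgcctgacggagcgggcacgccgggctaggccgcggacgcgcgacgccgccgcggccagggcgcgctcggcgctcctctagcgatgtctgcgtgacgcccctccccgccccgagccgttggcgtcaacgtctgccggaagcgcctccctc

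The Tpt1 promoter held 2 matches of the motif and the other 3 held none. They also differed in base composition, with 45 CG dinucleotides in the Urb2 promoter, 33 in Tpt1, 9 in Fblim1 and 7 in Parp16. Among all 1336 promoters whose start lies within 40 kb of an ES-only boundary, 5.39% held the KLF core, beside 5.19% of all 31396 autosomal promoters of the table. Their median of 7 CG dinucleotides was close to the 6 of all promoters, so the motif share and the base composition were both near those of all promoters. A match is a description of the letters and not a bound site.

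Most ES-only boundaries lay far from any MEF boundary rather than just past the 40 kb rule. The distance to the nearest MEF boundary had a median of 400 kb and an interquartile range of 240 to 640 kb. Only 51 boundaries sat at 80 kb, the shortest distance found, and 64 sat at 120 or 160 kb, while 921 (88.9%) lay over 160 kb away. On the other side of the threshold, 338 ES boundaries lay 40 kb from a MEF boundary, 6 lay at 20 kb and 1398 had the same position. The boundaries just inside the rule, taken by lowest position, were chr1:16520000, chr1:24680000, chr1:80760000, chr1:117560000 and chr1:164320000, the last beside Blzf1 and Nme7. Those just outside it were chr1:6160000, chr1:11600000, chr1:34480000 beside Ptpn18, chr1:34920000 and chr1:40840000. Positions are the last base of the domain to the left. Among listed H3K27ac counts within 200 kb, those crossing the 51 boundaries at 80 kb made up 0.918% in MEF and 1.24% in ES, and those crossing the 338 at 40 kb made up 1.77% and 2.41%. The values at 80 kb rest on 6 crossing interactions in MEF and 18 in ES, and KLF4 went from 1.24% at day 3 to 0.353% in ES there and from 0.78% to 1.65% at 40 kb.

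**Figure D1:**
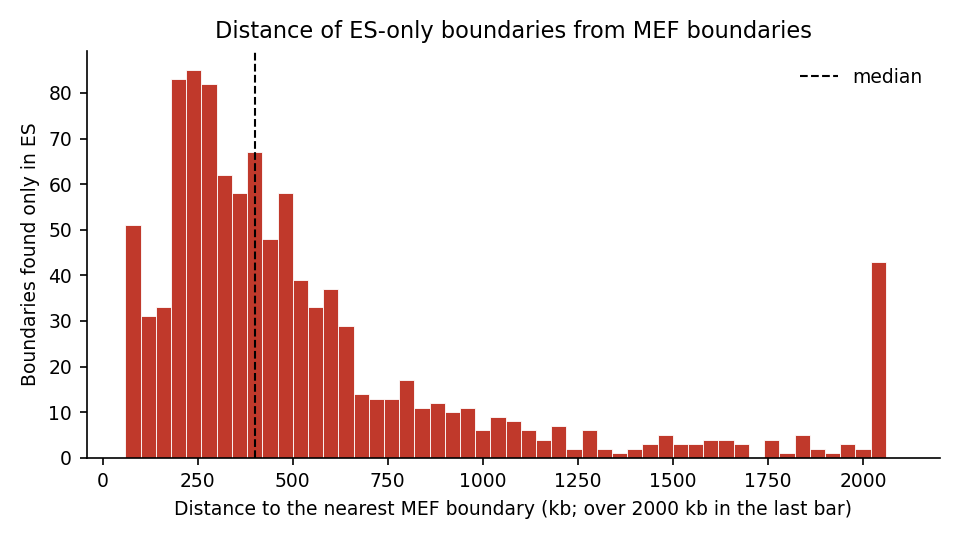
Histogram of the distance in kb from each of the 1036 ES-only boundaries to the nearest MEF boundary, in steps of 40 kb, with the median as a dashed line. The interquartile range runs from 240 to 640 kb around the median of 400 kb, and the last bar collects all longer distances.

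Nearly all ES-only boundaries split a MEF domain from within: 1017 lay inside one and 19 lay outside all of them. The MEF domains have 2732 distinct ends on the autosomes, as domains that abut without gaps do. A position over 40 kb from every MEF end must then lie inside a domain, except past the outermost ends. The count inside thus follows from the rule. The ES-only boundaries fell into 727 of the 2713 autosomal MEF domains (26.8%). A single ES-only boundary was found in 540 of these domains, 2 in 135, 3 in 29 and 4 or more in 23, with 10 in the most divided one. The split MEF domains were long, with a median of 1120 kb against 480 kb for the others. A longer domain also holds more positions that the rule can keep, so the rule itself favours a difference in this direction. ES domains that ended at an ES-only boundary on both sides numbered 417 and had a median length of 680 kb, beside 600 kb for the 1220 with 1 such end and 560 kb for the 1122 with none. The share of ES boundaries found only in ES ran from 28.1% on chromosome 13 to 46.2% on chromosome 17. The farthest one, chr7:13080000 near the zinc finger gene Mzf1, lay 6120 kb from a MEF boundary inside a MEF domain of 12400 kb. The 4 next farthest lay inside 2 such long MEF domains, at chr7:14320000, chr1:111640000, chr1:111280000 and chr1:113240000. They had no listed interaction of any library near them, so no gene bin could be named there.

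ES-only boundaries had fewer genes near them than the other boundaries and more than positions inside domains. The authors name genes per 10 kb bin in the TKO lists, and 261 ES-only boundaries (25.2%, Wilson interval 22.6% to 27.9%) had a named bin within 40 kb, with 527 genes in all. The same share was 43.7% (40.7% to 46.8%) for MEF-only boundaries, 35.0% (32.8% to 37.3%) for shared ones and 14.5% for 28322 grid positions at least 200 kb from any boundary. A RefSeq gene start lay within 40 kb of 56.9% of 991 ES-only boundaries, beside 68.5% of MEF-only, 65.9% of shared and 39.6% of interior positions. An H3K27ac ChIP peak of the TKO cells at 0 h, as the authors annotate it, lay within 40 kb of 35.5%, 54.8%, 45.7% and 22.6% in the same order. These gene and peak bins exist only where a TKO interaction was listed, so they undercount genes in quiet chromatin.

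No gene of the pluripotency list had a bin within 40 kb of an ES-only boundary, among the 26 of 30 that had a bin anywhere. The list runs from the core factors Pou5f1, Sox2 and Nanog to signalling genes such as Lifr and Socs3, and 1 of its genes lay near a MEF-only boundary and 1 near a shared one. None of the 10 listed genes for CTCF, cohesin and its partners and none of the 8 fibroblast genes with a bin lay there either. Over all genes 527 of 12334 (4.27%) did, so a list of 26 would hold few at that rate. Genes for ribosomal proteins lay near 5 of 73 times, namely Rpl12, Rpl3, Rpl35, Rpl8 and Rps14, and zinc finger genes named Zfp 11 of 243 times. Of 3 histone genes with a bin, Hist1h2bp lay near one.

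In Hi-C, few contacts crossed the ES-only boundaries in either cell type. The crossing share is the percentage of listed counts, among interactions with both anchors within 200 kb of a boundary, whose anchors lie on opposite sides of it. The 2 MEF libraries had 2.90% and 2.95%, and the 2 ES libraries had 3.00% and 2.99%, so the cells in which the boundary was not called had as low a share as the cells in which it was. At grid positions inside domains the mean share was 8.79% in MEF and 10.8% in ES. At MEF-only boundaries it was 1.35% in MEF and 5.08% in ES, and at shared boundaries 1.32% and 2.54%. Relative to positions inside domains, the share at ES-only boundaries was 0.333 in MEF and 0.277 in ES. At least 1 listed Hi-C interaction crossed 458 of the 1036 boundaries in MEF (44.2%) and 416 in ES (40.2%). Positions inside domains were crossed in 44.0% of cases in MEF and 37.0% in ES. By this count ES-only boundaries were thus not crossed less often than those positions.

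**Figure D2:**
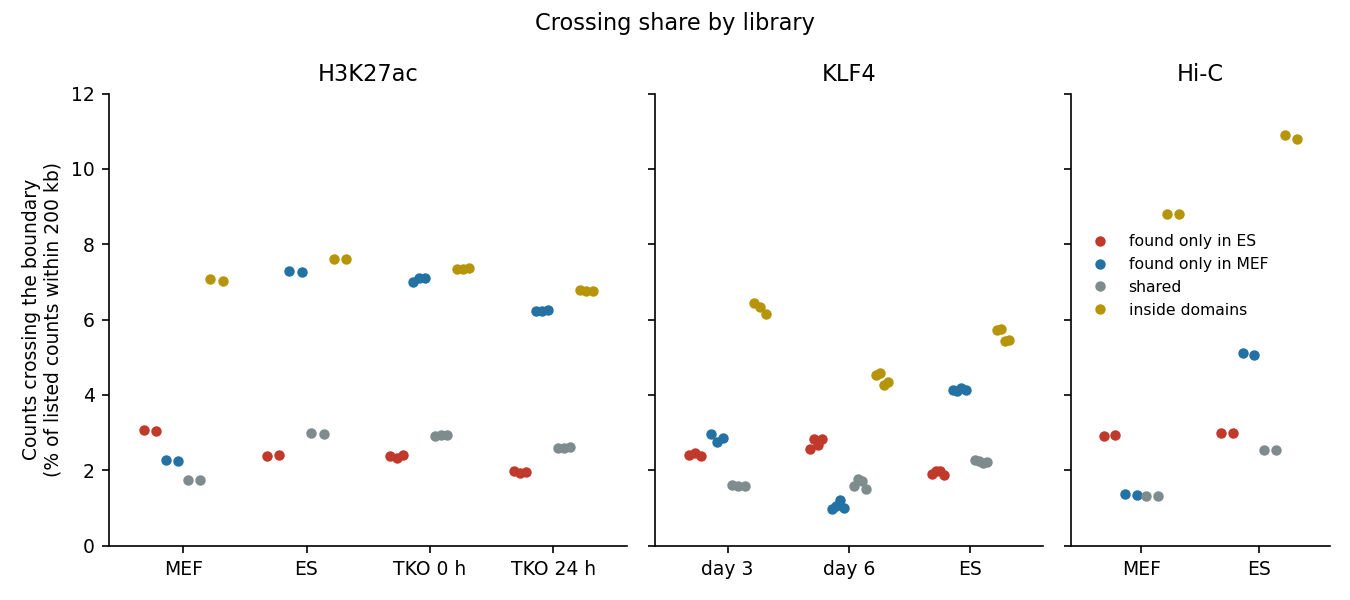
Crossing share per library, as the percentage of listed counts with both anchors within 200 kb that cross the boundary, for H3K27ac, KLF4 and Hi-C, each point being 1 library and each colour a class of boundary or the positions inside domains. ES-only boundaries stay between 1.88% and 3.07% in every library, while MEF-only boundaries sit at 2.25% and 2.27% in MEF H3K27ac and at 7.26% and 7.30% in ES H3K27ac.

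H3K27ac contacts, which the rule did not use, gave a similarly low share in both cell types. MEF libraries had 3.07% and 3.03% and ES libraries 2.37% and 2.40%, against means of 7.04% and 7.61% inside domains. Every ES library was below every MEF library, with a ratio of the means of 0.782 (3.05% ± 0.0309 in MEF and 2.38% ± 0.0177 in ES, SD, n = 2 each). The exact permutation test over libraries, two-sided, gave p = 0.333, the smallest p that 2 against 2 can give, and 0.333 after Benjamini-Hochberg adjustment over 6 such tests. In the other classes the ES share was the higher one, at 7.28% against 2.26% for MEF-only and 2.98% against 1.73% for shared boundaries. The ES-only share divided by the shared one in the same library was 1.76 in MEF and 0.801 in ES, again without overlap and again at the smallest exact p of 0.333. The drop at ES-only boundaries was smaller, from 2.93% to 2.66%, at the 834 that have no other boundary within 200 kb.

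The profile around the ES-only boundaries showed a trough in MEF as well as in ES. With the window moved along the chromosome, the MEF H3K27ac share was 10.2% at 100 kb to the left, 6.34% at 40 kb to the left, 3.05% at the boundary and 6.47% at 40 kb to the right. In ES the same positions gave 12.1%, 6.25%, 2.38% and 5.83%. At MEF-only boundaries the MEF H3K27ac share was 2.26%, and in ES it was 7.28% at the boundary and 7.81% and 8.82% at 100 kb on the left and right. ES Hi-C still had a trough at MEF-only boundaries, with 5.08% at the boundary against 14.0% at 100 kb on either side, and ES KLF4 had 4.13% against 6.79% and 6.94%. The Hi-C trough at ES-only boundaries went from 13.1% at 100 kb to the left to 2.92% in MEF and from 16.2% to 2.99% in ES. These profiles are descriptions, and no test was made along the positions.

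**Figure D3:**
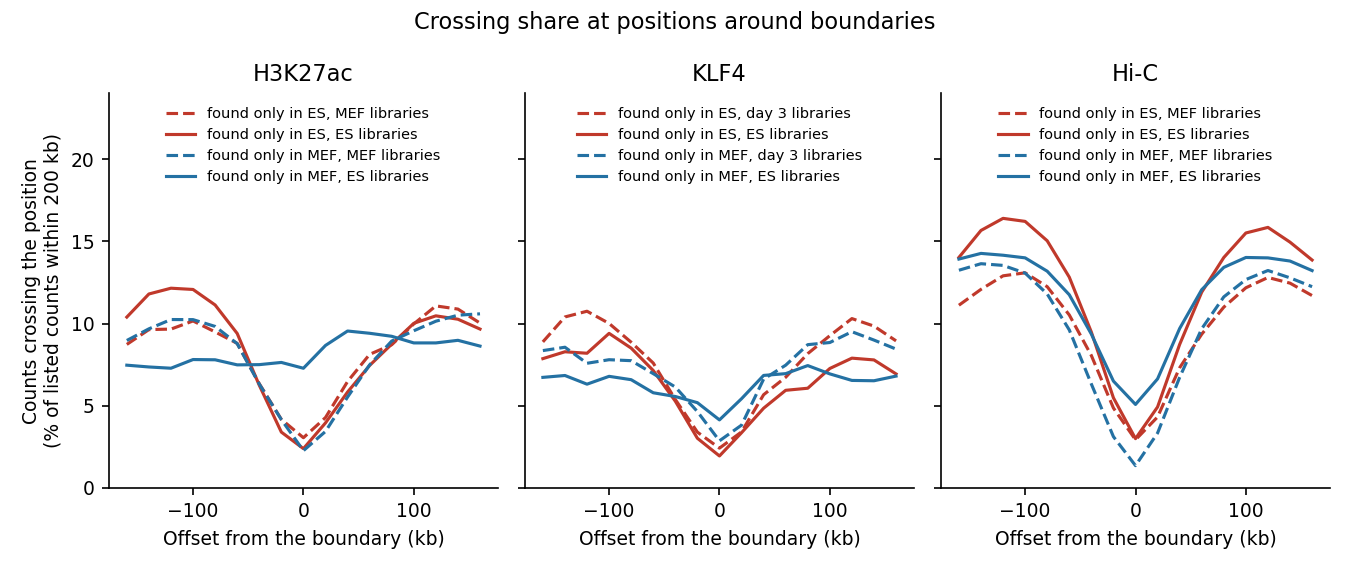
Mean crossing share in percent against the offset in kb from the boundary, for H3K27ac, KLF4 and Hi-C, with ES-only boundaries in red, MEF-only boundaries in blue, ES libraries as solid lines and MEF or day 3 libraries as dashed lines. The red lines dip to between 1.94% and 3.05% at the boundary in both cell types, whereas the solid blue H3K27ac line stays at 7.28%.

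About as many ES-only boundaries were crossed by listed H3K27ac interactions in MEF as in ES. At least 1 interaction crossed 136 boundaries in MEF (13.1%, Wilson interval 11.2% to 15.3%) and 141 in ES (13.6%, 11.7% to 15.8%). Of the ES-only boundaries, 55 were crossed in both lists, 81 in MEF only and 86 in ES only, and 814 in neither. The same split was not made for other boundaries or positions, so it cannot be read as particular to this class. MEF-only boundaries went from 17.4% crossed in MEF to 30.3% in ES. Positions inside domains were crossed in 15.4% of cases in MEF and 12.9% in ES. The interactions that crossed ES-only boundaries numbered 461 in MEF and 476 in ES, and the 74 in both lists were 16.1% of the first and 15.5% of the second. Interactions across MEF-only boundaries were shared at 32.8% of the MEF and 8.30% of the ES ones. Over all autosomal interactions the lists shared 29.3% of the MEF and 23.9% of the ES list, but the crossing ones spanned longer distances, with medians of 50 kb in MEF and 40 kb in ES against 20 and 30 kb over all. Interactions that ended within 40 kb without regard to crossing touched 385 ES-only boundaries in MEF (37.2%) and 352 in ES (34.0%). Of these, 242 were the same, again with no such number for the other classes. The share touched was 26.5% in MEF and 20.6% in ES for positions inside domains. It was 53.0% and 49.6% for MEF-only boundaries and 48.5% and 42.7% for shared ones.

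Strength was compared for the 74 crossing interactions in both H3K27ac lists, with edgeR's quasi-likelihood test on the raw counts and Benjamini-Hochberg adjustment over all 17901 interactions tested. It called 21 of the 74 (28.4%) at an adjusted p under 0.05, 7 higher and 14 lower in ES, while 32.0% of all interactions tested were called, 17.6% higher and 14.4% lower. The members' share of calls was thus near the background. Their median log2 fold change was -0.19 and that of all interactions -0.04. Scaling by contact totals without TMM factors shifted the median of all interactions to 0.21 and turned the split to 11 higher and 8 lower, so which direction prevails depends on the scaling. Without MEF replicate 2, the deeper MEF library, 13 were called. MEF-only boundaries were crossed by 120 such interactions, with 34 called higher and 5 lower. Among 678 interactions that ended near an ES-only boundary, 130 were called higher and 98 lower (33.6%).

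Counts were also summed per boundary, and 36 ES-only boundaries had a value. Such sums are given as library CPM, which is counts scaled to all contacts of a library, unlike the CPM in the lists. Of these, 8 were called (22.2%), 4 higher and 4 lower in ES, where 29.0% of all 200 boundaries tested were called, 23.5% higher and 5.50% lower. The ES-only values ran from a log2 fold change of -1.55 to 1.24 with a median of -0.12. MEF-only boundaries had 23 calls higher and 2 lower among 79 (median 0.20), and shared boundaries 20 higher and 5 lower among 85 (median 0.05). Scaling by contact totals gave 7 higher and 2 lower at ES-only boundaries. The calls rest on few libraries: 4 were made without MEF replicate 1 and 1 without MEF replicate 2.

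**Figure D4:**
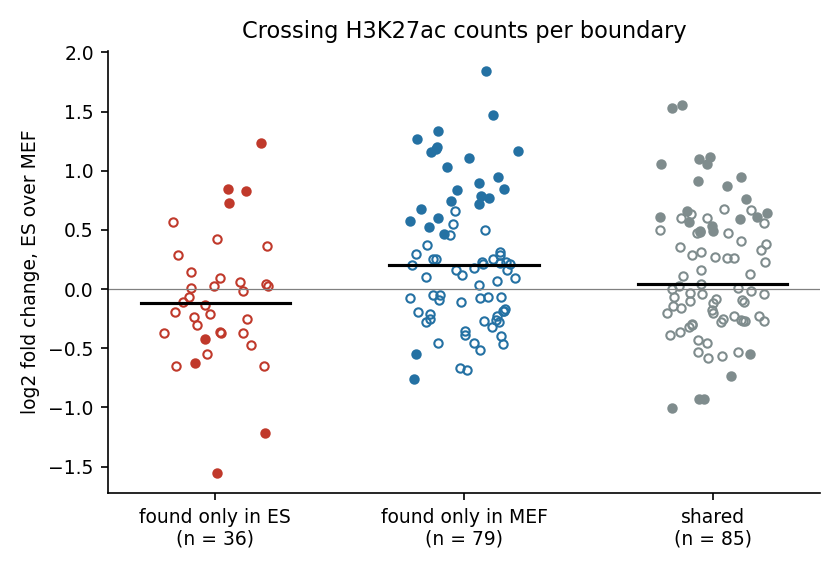
Log2 fold change of summed crossing H3K27ac counts, ES over MEF, for each tested boundary by class, with filled points called at an adjusted p under 0.05, open points not called and the class median as a bar. ES-only boundaries spread from -1.55 to 1.24 with calls on both sides, and their median is -0.12 beside 0.20 for MEF-only boundaries.

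The largest fall was at chr15:76200000, near Plec, the cytoskeletal linker plectin. Its crossing H3K27ac contacts came to a library CPM of 1.65 and 2.50 in MEF and 0.961 and 0.760 in ES, so the groups did not overlap (log2 fold change -1.55, SE 0.18, adjusted p = 0.000552 by edgeR's quasi-likelihood test). The boundary splits a MEF domain of 1500 kb. Its strongest single interaction joined the bins on either side, at 76190001 and 76200001, with 53 and 117 counts in MEF and 63 and 45 in ES despite the deeper ES libraries. Hi-C went the other way at this boundary, with 7 crossing interactions listed in MEF and 18 in ES. Without MEF replicate 2 the log2 fold change was -1.27 at an adjusted p of 0.0662.

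At chr14:75840000 a single interaction joined the bin to the left with the bin of the Tpt1 promoter shown above. It had a library CPM of 0.453 and 0.571 in MEF and 0.222 and 0.309 in ES (log2 fold change -1.22, SE 0.21, adjusted p = 0.00344), without overlap, and its adjusted p was 0.0643 and 0.153 without MEF replicate 1 and 2. The TKO lists held 2 and 3 crossing interactions there, and no KLF4 or Hi-C interaction crossed it. Smaller falls were called at chr4:62520000, near Alad (heme synthesis), Bspry, Hdhd3 and Pole3 (a DNA polymerase epsilon subunit), with -0.62, and at chr16:4680000, near Coro7 and Nmral1, with -0.42. Neither of these 2 stayed called without MEF replicate 1, without MEF replicate 2 or with contact totals, and the second also lost its call without ES replicate 2 (adjusted p = 0.0839 by edgeR) and with DESeq2 (0.236). Hi-C again differed from H3K27ac there, with 0 crossing interactions in MEF and 29 in ES at the Alad boundary and 1 and 13 at the Coro7 boundary.

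The largest rise was at chr4:141600000, which lies at the Fblim1 start shown above and near Tmem82 and the mitochondrial carrier gene Slc25a34. Crossing contacts came to a library CPM of 0.680 and 0.542 in MEF and 1.67 and 1.70 in ES, more than the spread in either group (log2 fold change 1.24, SE 0.15, adjusted p = 0.000716). Of the 8 called boundaries it was the only one that kept its call in every fit run. Both tested interactions began in the bin at 141590001, and they ended in the Fblim1 bin (26 and 26 counts in MEF, 128 and 141 in ES) and in the Tmem82 bin (25 and 31 in MEF, 150 and 145 in ES). The ES list had 6 crossing interactions and the MEF list 2, the TKO lists 5 at 0 h and 3 at 24 h, and Hi-C 2 in MEF and 10 in ES.

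The other rises were smaller. At chr9:65200000, near Parp16, contacts went from 0.680 and 0.599 library CPM in MEF to 1.28 and 1.42 in ES (log2 fold change 0.84, adjusted p = 0.00352). At chr1:153080000, with no annotated gene bin, they went from 0.307 and 0.257 to 0.601 and 0.576 (0.83, adjusted p = 0.0125). At chr8:124040000, near Urb2 and Taf5l (a subunit of a histone acetyltransferase complex), they went from 0.240 and 0.247 to 0.511 and 0.451 (0.73, adjusted p = 0.0235). Hi-C listed 2 crossing interactions in MEF and 3 in ES at chr9:65200000. It listed fewer in ES at chr1:153080000 (4 in MEF, 2 in ES) and at chr8:124040000 (8 in MEF, 5 in ES). The H3K27ac values at chr1:153080000 and chr8:124040000 each come from 1 interaction in both lists. In none of the 3 did MEF and ES H3K27ac libraries overlap in library CPM. The adjusted p without MEF replicate 2 was 0.102, 0.232 and 0.273, without MEF replicate 1 it was 0.0676 at chr1:153080000 and 0.14 at chr8:124040000, and without ES replicate 1 it was 0.0678 at chr8:124040000. DESeq2 gave 0.0808 at chr1:153080000 and 0.15 at chr8:124040000. The fifth boundary in each direction did not pass the test: chr19:53400000 near Smndc1 (a splicing factor) had a log2 fold change of -0.37 at an adjusted p of 0.0567 and overlapping libraries, and chr2:152360000 near Sox12 and Trib3 had 0.43 at 0.109.

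**Figure D5:**
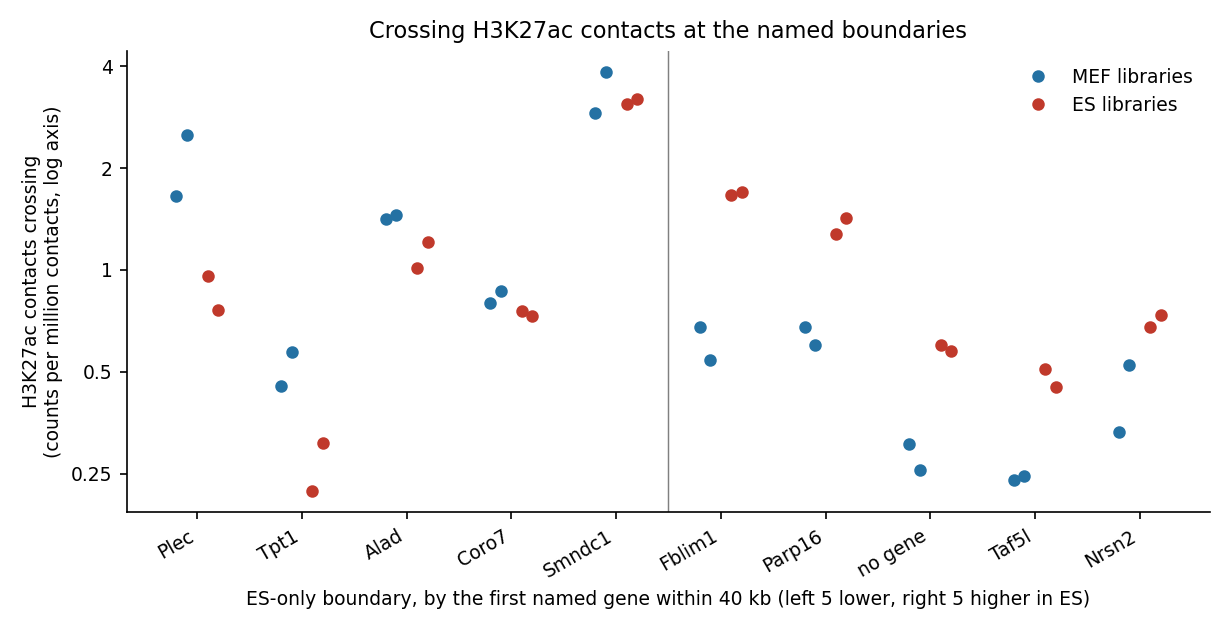
Crossing H3K27ac contacts in library CPM (counts scaled to all contacts of the library, log axis) in each MEF and ES library at 10 ES-only boundaries, labelled by the first named gene within 40 kb. The 5 on the left have lower ES values, from Plec (1.65 and 2.50 in MEF, 0.961 and 0.760 in ES) to Smndc1, where libraries overlap, and the 5 on the right have higher ones, led by Fblim1 (0.680 and 0.542 in MEF, 1.67 and 1.70 in ES).

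The same boundaries were followed through every list by summing the deposited CPM of the interactions that crossed them, as a description with no test. At the Plec boundary the sum was 58.8 and 82.4 in MEF H3K27ac, 23.2 and 18.3 in ES, and 12.3, 12.7 and 12.9 in TKO at 0 h, so both kinds of V6.5-labelled cells were below MEF. KLF4 had 31.6, 33.4 and 24.3 at day 3 and 15.5, 16.3, 11.4 and 10.6 in ES there, again lower in ES without overlap. The H3K27ac sums cover 9 listed interactions in MEF and 4 in ES, and the KLF4 sums 5 at day 3 and 3 in ES. Both therefore also move with how many interactions passed the filters. The KLF4 interaction between the bin at 76190001 and the Plec bin had a log2 fold change of -0.68 that did not pass the test (edgeR, adjusted p = 0.0721). At the Fblim1 boundary H3K27ac had 11.7 and 9.29 in MEF, 46.3 and 43.9 in ES and 47.3, 48.5 and 49.8 in TKO at 0 h. KLF4 was not listed there at day 3 or day 6 and had at least 8.09 in each of the 4 ES libraries, so both antibodies had more listed crossing contacts in ES. At chr1:153080000 H3K27ac had 3.74 and 3.15 in MEF, 63.7 and 59.8 in ES, 76.7, 80.3 and 78.7 in TKO at 0 h and 57.8, 52.9 and 54.6 at 24 h. These sums cover 1 listed interaction in MEF and 11 in ES, so they also move with how many interactions passed the filters. The 1 in both lists had the log2 fold change of 0.83 given above. KLF4 listed 1 crossing interaction there at day 3 and 0 in ES. At chr8:124040000 H3K27ac had 15.2 and 15.8 in MEF and 17.7 and 16.7 in ES, over 3 listed interactions in each. At the Ak3 boundary, chr19:29040000, H3K27ac had 16.3 and 24.5 over 4 interactions in MEF and 126 and 119 over 21 in ES, but the 2 interactions in both lists had a log2 fold change of 0.03 (SE 0.22, adjusted p = 0.949 by edgeR). KLF4 had 66.3, 78.3 and 71.7 over 10 interactions at day 3, 15.8 to 20.4 over 4 at day 6 and 17.3 to 23.5 over 5 in ES.

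The boundaries with the most ES H3K27ac interactions ending within 40 kb were mostly others, and 3 of these 5 had no crossing interaction in both lists to test. At chr19:53400000 there were 81 such interactions in ES and 78 in MEF, with 31 and 19 that crossed. At chr15:80080000, near the ribosomal protein gene Rpl3 and the synaptic vesicle gene Syngr1, 67 interactions ended in ES and 11 in MEF, and 8 crossed in ES while none was listed in MEF. At chr19:29040000, near the adenylate kinase gene Ak3, 57 ended in ES and 10 in MEF, with 21 and 4 that crossed, while the 2 crossing interactions in both lists did not pass the test (log2 fold change 0.03, adjusted p = 0.949 by edgeR). At chr10:108280000, with no gene bin, the numbers were 51 and 3, and at chr11:97640000, near the chromatin gene Mllt6, 51 and 0. The TKO list at 0 h held 78 and 60 at these last 2, in the order given, so both were also dense in a separate set of libraries from cells with the V6.5 label. The ranking depends on the chromosome as well, since the deposited CPM is relative to it and fewer counts suffice for listing on chromosome 19.

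Some ES-only boundaries had many more crossing interactions in one H3K27ac list than in the other. Those with the largest differences are given here and were picked after their values were seen. The deposited CPM is relative to the chromosome, so fewer counts suffice for listing on a small chromosome. In MEF replicate 1, 29 counts came to 16.3 at chr19:29040000 and 23 counts to 3.74 at chr1:153080000. Numbers of listed interactions are thus not on one scale across chromosomes. The largest excess in ES was at chr19:29040000, and the next was chr10:108280000, crossed by 16 interactions in ES with 1033 and 1012 counts and by none in MEF, followed by chr19:7440000 near 2700081O15Rik (17 and 1), chr9:65600000 near Plekho2 and Rbpms2 (14 and 0) and chr11:97640000 (14 and 0). The largest excess in MEF was at chr19:28520000, with 53 crossing interactions in MEF and 4 in ES, and its MEF counts summed to 480 and 643 against 72 and 67 in ES. Next came chr15:66880000, with 32 in MEF and none in ES, where the MEF libraries held 673 and 1067 counts and where Hi-C listed 26 in MEF and 7 in ES. At chr15:64400000, chr19:56040000 and chr9:41480000, 12, 11 and 10 crossed in MEF and none in ES, and none of these last 4 had a crossing TKO interaction. None of these 5 boundaries had a named gene bin within 40 kb, but bins are named only where a TKO interaction was listed. At 0 h, 17 TKO interactions ended within 40 kb of chr19:28520000 and 3 of chr15:66880000. At chr15:64400000, chr19:56040000 and chr9:41480000 the number was 0, so no bin could be named. A missing bin therefore does not show that no gene lies there. A boundary without a listed interaction has no lower limit of its own, since the lists leave out interactions below the authors' filters.

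KLF4 contacts also crossed the ES-only boundaries in a low share. At day 3 of reprogramming 2.41%, 2.46% and 2.38% of counts within 200 kb crossed the ES-only boundaries, at day 6 2.57%, 2.82%, 2.68% and 2.82%, and in ES 1.90%, 1.99%, 1.98% and 1.88%. All ES libraries lay below all day 3 libraries (2.42% ± 0.0394, SD, n = 3, against 1.93% ± 0.00565, SD, n = 2 summed samples, ratio 0.799). The exact permutation p, two-sided, was 0.2, the smallest that 3 against 2 can give, and 0.333 after adjustment. No KLF4 library of uninduced MEFs was analysed, and the day 6 share rests on 24 interactions, so it was not compared. Inside domains the share was 6.31% at day 3 and 5.59% in ES. At MEF-only boundaries it was 2.86% at day 3 and 4.13% in ES, and the ratio of the ES-only to the MEF-only share in the same library was 0.846 at day 3 and 0.467 in ES (exact p = 0.2, adjusted 0.333).

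Listed KLF4 interactions crossed 69 ES-only boundaries at day 3 (6.66%), 18 at day 6 (1.74%) and 67 in ES (6.47%). Both the day 3 and the ES list crossed 25 of them, a number not made for the other classes. Positions inside domains were crossed in 8.39%, 1.73% and 8.56% of cases at day 3, at day 6 and in ES. For MEF-only boundaries it was 11.1%, 0.909% and 14.7%. Positions inside domains had a KLF4 anchor within 40 kb in 17.3% of cases at day 3 and 17.5% in ES. KLF4 interactions ended within 40 kb of 257 ES-only boundaries at day 3 (24.8%) and 288 in ES (27.8%). The most in ES were 29 at chr19:37920000, 24 at chr19:53400000, 20 at chr19:29040000, 19 at chr9:65600000 near Plekho2 and the helicase gene Pif1, and 19 at chr17:29520000 near Pim1, a kinase gene, and Tbc1d22b. At day 3 the same boundaries had 39, 38, 27, 15 and 12. The KLF4 CPM is also relative to the chromosome, so these numbers may not be on one scale across chromosomes.

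The edgeR quasi-likelihood test called 2 of the 33 crossing KLF4 interactions in both lists, 1 higher and 1 lower in ES, which is 6.06% beside 7.20% of all 7387 tested (3.02% higher and 4.18% lower). By unadjusted p, 8 of the 33 were under 0.05. That number was not made over all 7387, so it is not read as an excess. The lower one crossed chr8:94680000 and joined the bin of Arl2bp, a regulator of a small GTPase, with that of Pllp, the membrane protein plasmolipin. It had a library CPM of 0.331, 0.442 and 0.410 at day 3 and 0.206, 0.231, 0.171 and 0.137 in ES, so the groups did not overlap (log2 fold change -1.21, SE 0.23, adjusted p = 8.12e-05 by edgeR). The higher one crossed chr8:124040000 from the Taf5l and Urb2 bin, where H3K27ac crossing contacts, 1 interaction in both lists, were called higher in ES. It had 0.276, 0.177 and 0.194 at day 3 and 0.309, 0.444, 0.277 and 0.373 in ES, with all ES libraries above all day 3 libraries (log2 fold change 0.74, SE 0.23, adjusted p = 0.0317 by edgeR). This second call was lost without any 1 of the day 3 libraries (adjusted p from 0.0591 to 0.259), without ES replicate 2 or 4 (0.0639 and 0.118), with contact totals (0.0758), with DESeq2 (0.465) and with a replicate block (0.155). Among 292 KLF4 interactions that ended near an ES-only boundary, 11 were called higher and 12 lower (7.88%).

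In the cells named TKO, fewer H3K27ac contacts crossed the ES-only boundaries after 24 h of doxycycline, as at other positions. The share was 2.38%, 2.32% and 2.40% at 0 h and 1.99%, 1.94% and 1.96% at 24 h, without overlap. It was lower at 24 h in every other class too, from 7.05% to 6.24% at MEF-only boundaries, from 2.93% to 2.60% at shared ones and from 7.34% to 6.76% inside domains. Interactions crossed 194 ES-only boundaries at 0 h (18.7%) and 152 at 24 h (14.7%), with 128 in both, a number not made for the other classes. Positions inside domains were crossed in 16.6% of cases at 0 h and 14.9% at 24 h. For shared boundaries it was 21.9% and 18.7%, and for MEF-only ones 37.3% and 33.7%. The lists also overlapped with ES H3K27ac: 309 crossing interactions were in both the ES and the TKO 0 h list, which is 64.9% of the ES and 49.4% of the TKO ones. Over all autosomal interactions the overlap was larger, at 77.8% of the ES and 62.6% of the TKO list. The crossing ones spanned longer distances, with a median of 40 kb in both lists against 30 kb in ES and 20 kb in TKO over all.

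Of 326 crossing interactions in both TKO lists, edgeR's quasi-likelihood test called 4, all lower at 24 h (1.23%), beside 2.62% of all 67728 tested, of which 2.04% lower and 0.576% higher. By unadjusted p, 33 of the 326 were under 0.05. That number was not made over all 67728, so it is not read as an excess. Contact totals without TMM moved the median of all interactions from 0.01 to -0.10 and gave 13 calls, all lower. Over all interactions they gave 2825 calls in place of 1774. DESeq2 called none of the 326, with 5 at an unadjusted p under 0.05, and 105 over all interactions. Of the 4, 3 crossed chr10:95880000, and the strongest joined bins 95870001 and 95890001 with 83, 63 and 76 counts at 0 h and 24, 34 and 27 at 24 h (log2 fold change -1.14, SE 0.18, adjusted p = 2.67e-07). The groups did not overlap there, and no annotated gene lies in either bin. The fourth crossed chr1:153080000, the boundary whose crossing contacts rose from MEF to ES, over 300 kb between bins 152790001 and 153090001, with 98, 66 and 68 counts at 0 h and 42, 43 and 41 at 24 h (log2 fold change -0.64, adjusted p = 0.00737). That call was lost without 0 h replicate 1 (0.103) or 24 h replicate 2 (0.204).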

How the data were processed

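Mouse HiChIP and Hi-C libraries were analysed from deposited interaction lists of 10 kb bins and from 1 deposited domain list per cell type. Reads were aligned with Bowtie2 2.2.3 to mm10, per the submitters' processing notes. The contact and domain callers are not given in the sources used here. Per the file headers, each list holds raw counts and CPM per replicate. The HiChIP CPM that the authors deposited is relative to the contacts of the same chromosome, and the Hi-C value under that name is a signal that the authors scaled by unstated chromosome constants. Each deposited interaction also has a p-value and a distance-normalized ratio, and each deposited domain a score. How the authors made them is not given in the sources used here, and no result in the text rests on them. By their values, the H3K27ac lists hold only interactions with a CPM above 3 in every library.

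An interaction crossed a boundary when its bins lay on opposite sides, and ended near it when a bin lay within 40 kb. Raw counts of interactions in both lists were tested with edgeR 4.0.16 in R 4.3.3 (quasi-likelihood, filterByExpr, TMM factors on contact totals), fitted over all chromosomes of the list pair with only the 2 groups compared, and adjusted by Benjamini-Hochberg. Steps were tested on simulated data. Libraries whose counts agreed by a chi-square test (p at or above 0.01, with some other pair of that group below it) were summed. The test covered interactions with a pooled CPM of at least 6, the counts of both libraries over the contacts of both. That selection and threshold were set after the p-values were seen, with TKO 0 h replicates 2 and 3 at 0.049. Fits with all libraries separate, DESeq2 1.42.0, other scalings, filters, windows and tolerances, a replicate block and single libraries left out were the alternatives.

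Boundaries were named by rule: the 5 with the lowest adjusted p in each direction, the 5 with the most ES H3K27ac and the most ES KLF4 interactions ending near, the 5 farthest from MEF boundaries and 5 at 40 and 80 kb, with the 5 crossing interactions of lowest adjusted p in each direction and comparison. Members, rules and lists were chosen with earlier results of these data known, and the interior positions, the isolated boundaries and the exclusion of ribosomal-like symbols such as Rps19bp1 after seeing values. The promoter table used here held no chromosome 18, so gene-start shares cover 18 autosomes. Python 3.11.15, numpy 2.4.6, pandas 2.3.3, scipy 1.17.1 and matplotlib 3.10.9 were used. Intervals cover counting error only, since PCR copies are not independent molecules.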

Additional observations from a re-analysis of the deposited data

How the results depend on the processing

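DESeq2 called 10 crossing H3K27ac interactions in place of 21 and 1 KLF4 interaction in place of 2. It called 0 TKO interactions in place of 4 and 5 boundaries in place of 8. Over all interactions it called 2396 in place of 5721 for H3K27ac and 64 in place of 532 for KLF4. For TKO it called 105 in place of 1774, so calls fell over the whole lists as well. Leaving out 1 library gave 13 to 21 H3K27ac calls, 1 to 3 KLF4 calls, 3 to 5 TKO calls and 1 to 9 called boundaries. Contact totals without TMM gave 1 KLF4 and 13 TKO calls, beside 284 and 2825 over all interactions. With all libraries separate there were 4 KLF4 and 7 TKO calls, beside 710 and 1947 over all interactions. With a replicate block there were 22 H3K27ac, 1 KLF4 and 7 TKO calls and 8 boundaries. Over all interactions the block gave 5879, 298 and 2024. Same-numbered libraries deviated together with correlations of only 0.031 in H3K27ac, at most 0.021 in KLF4 and at most 0.005 in TKO, and the labels do not tie the numbers to a shared source, so the block is not read as a pairing. A tolerance of 0 kb gave 9 TKO calls. Anchors at least 20 kb from the boundary left 21 TKO interactions with 0 calls. They left no H3K27ac or KLF4 interaction and no boundary to test. Of the 21, 3 were under 0.05 by unadjusted p, with no such number made over all interactions.

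The crossing share of H3K27ac in ES minus MEF (-0.67 percentage points) was -0.95 and -0.31 with windows of 100 and 400 kb, -2.55 with anchors at least 50 kb apart, -0.18 with anchors at least 20 kb from the boundary and -0.32 at a tolerance of 0 kb. For KLF4 in ES minus day 3 (-0.49) the same settings gave -1.24, -0.27, -2.59, -0.03 and -0.14. Further settings were added after seeing the data. Boundaries with no other boundary within 200 kb gave -0.27 and -0.70, leaving out chromosome 19 gave -0.55 and -0.32, and using only interactions in both lists gave -0.39 and -0.19. Leaving out 1 library kept the differences between -0.64 and -0.69 and between -0.46 and -0.51. All of these kept the direction.

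Interactions crossing ES-only boundaries were 0.778% of the MEF H3K27ac list, 0.505% of it at 2 times the CPM cutoff and 1.88% among anchors at least 50 kb apart. In the same order they were 0.655%, 0.415% and 1.15% of the ES H3K27ac list, 0.639%, 0.514% and 1.54% of the day 3 KLF4 list, and 0.469%, 0.313% and 0.828% of the ES KLF4 list. Genes near ES-only boundaries numbered 266 within 20 kb and 1025 within 80 kb. Of the named boundaries and interactions, the KLF4 interaction between 83310001 and 83320001 on chromosome 6, not called, changed sign to -0.00182 without ES replicate 4, and leaving out ES replicate 1 gave the highest value, 0.41. Single interactions with 11 to 47 median counts limit which of these differences could be seen, and the MEF H3K27ac libraries (at most 105 M contacts) are shallower than the ES ones (166 and 168 M).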
